A study of Mus musculus with 6 samples.

Results

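The thioredoxin system keeps protein thiols reduced and removes hydrogen peroxide. The 10 genes described here encode its core in mouse: the thioredoxins Txn1 and Txn2, the thioredoxin reductases Txnrd1 and Txnrd2, the peroxiredoxins Prdx1, Prdx2, Prdx3, Prdx5 and Prdx6, and sulfiredoxin, Srxn1. They were chosen by symbol, with earlier results of these data known, and all 10 were found among 57180 gene identifiers in the expression table. Txn2, Txnrd2, Prdx3 and Prdx5 were taken as the 4 mitochondrial members and the other 6 as cytosolic, although Prdx5 protein is also found in peroxisomes and cytosol. RNA sequencing was done on wild-type mouse bone marrow-derived macrophages, primary cells kept for 5 days in osteoclast-inducing culture. The control group had 3 libraries without Visomitin and the other group 3 libraries with it, and wild-type genotype, bone marrow source and culture were shared by both. Visomitin, also called SkQ1, is a plastoquinone antioxidant tied to a lipophilic cation that carries it into mitochondria. The labels give no dose. The labels do not say whether libraries came from separate mice or cultures, so p-values reflect only how much these libraries vary, and that variation may be technical.

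In this system, thioredoxin reductase, a selenoprotein, uses NADPH to reduce thioredoxin. Thioredoxin in turn reduces peroxiredoxins, whose reactive cysteine breaks down peroxides, and sulfiredoxin repairs typical peroxiredoxins whose cysteine was over-oxidised. Mitochondria hold a chain of their own, with Txn2, Txnrd2 and Prdx3. NRF2, a transcription factor activated by oxidants and electrophiles, is known to drive Srxn1, Txnrd1 and Prdx1 through antioxidant response elements. Reactive oxygen species also act as signals in osteoclast formation.

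Levels are in TPM, which corrects for transcript length and gives each library an equal total, and from which sequencing depth cannot be recovered. All 10 members passed the filter of at least 1 TPM in at least 3 libraries, as did 11753 genes in all. Differences are Visomitin minus control on the log2(TPM + 1) scale, tested with limma, and adjusted p-values are over all genes tested, with 0.05 as the threshold. Of all genes tested 244 were called higher (2.08%) and 591 lower; after median-ratio scaling these were 481 and 689, and after quantile normalization 560 and 651. Visomitin 1 stood apart from the other treated libraries: its score on the second principal component, which held 19.6% of the variance, was 25.1 where theirs were -17.2 and -16.8, and its median-ratio size factor was 0.911 where theirs were 1.01 and 1.04. The cells carried macrophage transcripts throughout, with Csf1r, the receptor of the growth factor CSF1, at 1383 ± 115 TPM without and 1511 ± 389 TPM with the compound (SD, n = 3), and Adgre1, a macrophage surface receptor, at 733 ± 89.2 and 857 ± 75.2 TPM. Monocyte genes Ly6c2 and Ccr2 were under 1 TPM in every library. Osteoclast markers were present in both groups and lower with Visomitin in all 10 of 10 genes of the list, with a summed level of 11171 to 12121 TPM in control and 2938 to 3531 TPM with Visomitin. Among them Acp5 (log2 difference -2.09), Ctsk (-2.22) and Dcstamp (-2.94) fell (limma adjusted p = 8.99e-06 for each). Of 8 tested macrophage markers 3 rose and 0 fell, and the summed level of that list was 4118 to 4376 TPM in control and 3731 to 4909 TPM with Visomitin. Cd68, one of these markers, was lower in every Visomitin library than in any control but did not pass (-0.20, limma adjusted p = 0.16). Of the dendritic cell list 4 of 6 genes were under 1 TPM in every library. Itgax from that list fell (-1.52, limma adjusted p = 0.00094), and Zbtb46 did not pass (-0.03, adjusted p = 0.94). Of the lymphocyte list 6 of 6 genes and of the neutrophil list 7 of 8 were under 1 TPM in every library, with Cd3e, Ly6g, Elane and Mpo at 0. The stromal and osteoblast list summed to 112 to 318 TPM in control and 78.1 to 165 TPM with Visomitin, mostly Col1a1 and Col1a2, with Bglap at 0. Col3a1, Dcn and Runx2 of that list were also above 1 TPM in every library. The part of these shifts in the results below was not tested, and in bulk RNA fewer cells of a type and less RNA per cell cannot be told apart.

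Upstream sequences of the 4 members that fell, and of Prdx1, which did not pass, are shown first, because several members are well-known NRF2 targets. RefSeq promoter windows on GRCm38.p6 were matched for 9 members, 11 windows of 300 bases from 250 before the transcript start. No window was matched for Prdx6. The labels do not name the build behind the deposited table, so these windows describe the genes and not the reads. Below are the 250 bases upstream of the start, 5′ to 3′ along the gene, for 3 cytosolic genes that hold an antioxidant response element core in their window and for the 2 mitochondrial genes that fell. Capitals mark matches to the antioxidant response element core TGACNNNGC on either strand and to the AP-1 site TGANTCA, which reads the same on both strands. They also mark TGANTCAGC, an AP-1 site extended by GC that matches the core only where N is C. This last motif was added after the windows were seen.
Srxn1, chr2:152105274-152105523, plus strand: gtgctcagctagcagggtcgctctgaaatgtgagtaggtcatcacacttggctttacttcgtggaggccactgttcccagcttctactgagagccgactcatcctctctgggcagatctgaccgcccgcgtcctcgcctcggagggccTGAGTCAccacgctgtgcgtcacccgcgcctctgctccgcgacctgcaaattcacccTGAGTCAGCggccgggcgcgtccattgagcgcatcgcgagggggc
Txnrd1, second of 3 starts, chr10:82858956-82859205, plus strand: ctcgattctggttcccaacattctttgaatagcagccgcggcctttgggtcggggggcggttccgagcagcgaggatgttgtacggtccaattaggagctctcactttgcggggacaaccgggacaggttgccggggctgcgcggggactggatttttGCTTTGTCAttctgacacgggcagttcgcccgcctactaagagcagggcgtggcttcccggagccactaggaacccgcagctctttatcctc
Prdx1, chr4:116685349-116685598, plus strand: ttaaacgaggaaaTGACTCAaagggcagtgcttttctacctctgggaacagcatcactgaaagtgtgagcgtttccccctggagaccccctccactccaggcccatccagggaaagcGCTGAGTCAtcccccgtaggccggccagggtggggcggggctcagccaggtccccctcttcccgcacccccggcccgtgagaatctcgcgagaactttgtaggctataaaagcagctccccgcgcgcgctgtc
Txn2, chr15:77928995-77929244, minus strand: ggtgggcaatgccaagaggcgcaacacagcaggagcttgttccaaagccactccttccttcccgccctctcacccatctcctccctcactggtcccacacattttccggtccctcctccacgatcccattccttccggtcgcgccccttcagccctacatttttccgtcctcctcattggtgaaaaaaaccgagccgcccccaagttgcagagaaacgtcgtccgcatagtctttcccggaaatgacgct
Prdx3, chr19:60874539-60874788, minus strand: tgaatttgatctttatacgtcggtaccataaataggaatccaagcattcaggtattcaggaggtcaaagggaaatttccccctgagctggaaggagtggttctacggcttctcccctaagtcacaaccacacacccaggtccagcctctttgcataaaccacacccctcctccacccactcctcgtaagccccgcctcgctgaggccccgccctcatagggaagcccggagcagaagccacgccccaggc

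Antioxidant response element cores stood in the windows of 3 cytosolic members and 0 of the 4 mitochondrial members. Txnrd1 had 3 windows, of which only the second held a core, and cytosolic Prdx6 had none to search. Whether the compartments differ in this was not tested. In Srxn1 the core lies downstream of the start, as GCTAGGTCA at 28 to 36, and AP-1 sites lie at -102 to -96 and -45 to -39. The site at -45 extends to TGAGTCAGC, which matches TGANTCAGC but not the core TGACNNNGC. In Txnrd1 the core is GCTTTGTCA at -92 to -84, and in Prdx1 it is GCTGAGTCA at -133 to -125, where it overlaps an AP-1 site. Of 32851 RefSeq windows of the same length 12.4% hold TGACNNNGC, 7.81% TGANTCA and 1.19% TGANTCAGC. Neither TGATGNAA, a C/EBP-ATF element (3.97% of windows), nor the E-box CACGTG (7.15%) occurred in any member window. A match is a description of letters and not a bound site.

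**Figure D1:**
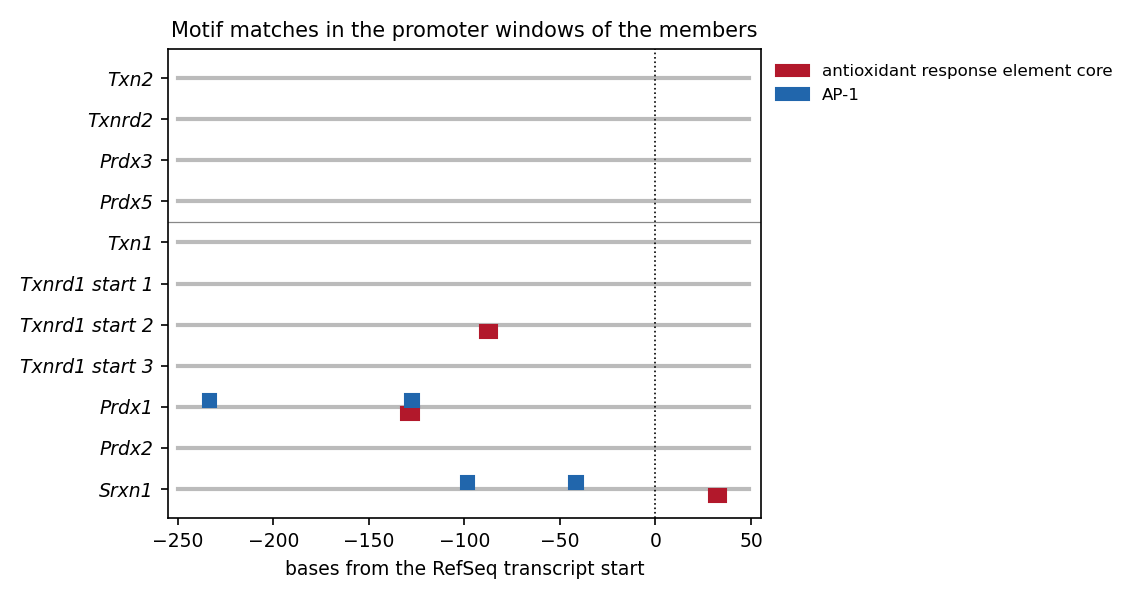
Positions of motif matches in the 300-base RefSeq promoter windows of 9 members. The horizontal axis gives bases from the transcript start (dotted line); red boxes are matches to the antioxidant response element core and blue boxes are AP-1 matches, both to scale. Matches stand in Srxn1, Prdx1 and 1 of 3 Txnrd1 windows, and none in the windows of the 4 mitochondrial members above the grey line.

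With Visomitin 4 of the 10 members fell and 0 rose by limma, 2 of the 4 mitochondrial members (Txn2 and Prdx3) and 2 of the 6 cytosolic ones (Txnrd1 and Srxn1). Of all genes tested 7.10% were called in either direction and 5.03% lower. The members were chosen with earlier results of these data known, so the shares in this paragraph describe them and do not test the family. Visomitin 1 held the lowest value of 5 of the 10 members, and without it 5 members fell and 0 rose. Without control 1 or without control 3, 1 member fell, and without Visomitin 2, or with no filter on low values, 2 did. Fits with a library left out have fewer residual degrees of freedom. Over the 11 alternatives described below, the differences ran from -0.66 to -0.54 for Txn2 and -0.46 to -0.39 for Prdx3. They ran from -0.67 to -0.47 for Txnrd1 and -0.61 to -0.46 for Srxn1. The falls were between 1.35-fold and 1.54-fold, small beside the 4.25-fold fall of Acp5. At an unadjusted p of 0.05, 5 members were lower and 1, Prdx5, was higher, where 24.4% of all genes tested passed in either direction. Group ranges did not overlap for 7 members, 6 lower and 1 higher, where 30.4% of all genes tested were apart, 18.4% lower and 11.9% higher. The median log2 difference of the 10 members was -0.17, beside -0.03 over all genes tested.

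**Figure D2:**
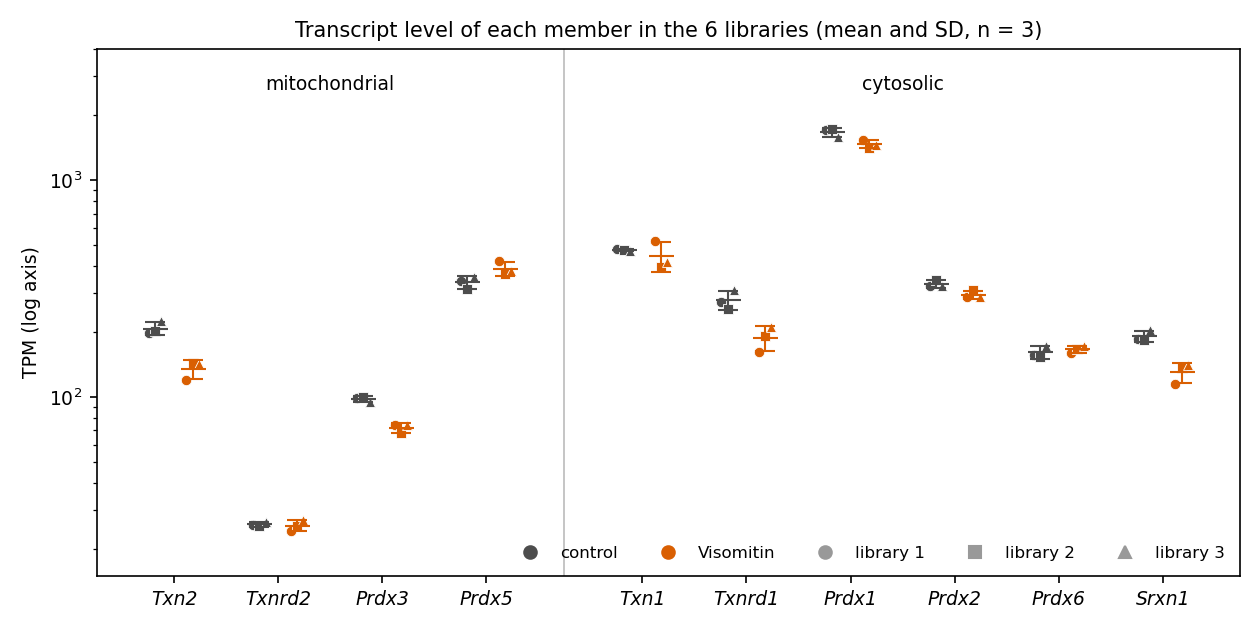
TPM of each member (vertical log axis) in the 3 control libraries (grey) and the 3 Visomitin libraries (orange), with library numbers as symbols and mean ± SD as bars. Txn2, Prdx3, Txnrd1 and Srxn1 have every Visomitin library below every control, and Txnrd2, Txn1 and Prdx6 overlap.

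Of the thioredoxins, mitochondrial Txn2 fell and cytosolic Txn1 did not pass; whether their differences differ was not tested. Txn2, the mitochondrial thioredoxin, was at 196, 201 and 223 TPM in control 1, 2 and 3, and at 119, 143 and 141 TPM in Visomitin 1, 2 and 3. All Visomitin libraries lay below all controls, with Visomitin 1 lowest. Txn2 fell 1.54-fold (log2 difference -0.62, SE 0.10, limma adjusted p = 0.0090), and it was the one member whose call held under all 11 alternatives (adjusted p 0.0053 to 0.040). Txn1, the cytosolic and nuclear thioredoxin, was at 478, 478 and 471 TPM in control and at 524, 396 and 417 TPM with Visomitin. Visomitin 1 was above every control and the other two were below every control, so the groups overlapped. The Txn1 difference was -0.10 (95% interval -0.35 to 0.14, limma adjusted p = 0.60), and without Visomitin 1 it was -0.23 (adjusted p = 0.045; 0.045 to 0.94 over the alternatives). The ratio of Txn2 to Txn1 transcripts within a library was 0.411 to 0.472 in control and 0.228 to 0.360 with Visomitin.

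Of the reductases, cytosolic Txnrd1 fell and mitochondrial Txnrd2 did not pass. Txnrd1, the cytosolic enzyme that recharges thioredoxin, was at 273, 254 and 311 TPM in control and at 161, 190.3 and 211 TPM with Visomitin. The groups did not overlap, with control 3 highest and Visomitin 1 lowest. Txnrd1 fell 1.49-fold (log2 difference -0.58, SE 0.12, limma adjusted p = 0.025). Leaving out control 1 (adjusted p = 0.086), control 3 (0.092) or Visomitin 2 (0.075), or using no filter on low values (0.088), ended this call, and over the alternatives the adjusted p ran from 0.0097 to 0.092. Txnrd2, the mitochondrial reductase, was at 25.6, 25.5 and 26.6 TPM in control and at 24.1, 25.3 and 27.1 TPM with Visomitin, the lowest level of the family. Its groups overlapped, and the difference was -0.02 (95% interval -0.24 to 0.19, limma adjusted p = 0.91), with the sign reversed after median-ratio scaling (0.02), quantile normalization (0.04) and without Visomitin 1 (0.02). The interval leaves out a fall of the size seen for Txnrd1. Txnrd1 stood at 9.96 to 11.7 times the level of Txnrd2 in the control libraries and at 6.69 to 7.77 times with Visomitin.

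Srxn1, the repair enzyme of over-oxidised peroxiredoxins, was at 184, 182 and 203 TPM in control and at 114, 135 and 139.7 TPM with Visomitin. No Visomitin library reached a control, and again control 3 was highest and Visomitin 1 lowest. Srxn1 fell 1.47-fold (log2 difference -0.55, SE 0.10, limma adjusted p = 0.016). It missed the threshold in the fits lacking control 1 (adjusted p = 0.062) or control 3 (0.064) and the fit with no filter on low values (0.053), with a range of 0.0072 to 0.064 over the alternatives. Prdx1 transcripts per Srxn1 transcript numbered 7.73 to 9.37 in control and 10.3 to 13.4 with Visomitin, so the ranges were apart. Ranges overlapped for ratios between some members that both fell. Prdx3 per Srxn1 was 0.465 to 0.549 in control and 0.502 to 0.649 with Visomitin, and Txn2 per Prdx3 was 1.98 to 2.35 and 1.61 to 2.10.

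Among the peroxiredoxins, mitochondrial Prdx3 was the 1 of 5 that passed. Prdx3, which takes its electrons from Txn2, was at 99.1, 100.2 and 94.6 TPM in control and at 74.1, 67.9 and 74.6 TPM with Visomitin. The spread within each group was narrow beside the gap between them. Prdx3 fell 1.35-fold (log2 difference -0.44, SE 0.08, limma adjusted p = 0.018), and leaving out control 1 (0.080), control 2 (0.074), control 3 (0.051) or Visomitin 2 (0.082) ended the call (0.017 to 0.082 over the alternatives). Prdx5, an atypical peroxiredoxin of mitochondria, peroxisomes and cytosol, was at 341, 314 and 357 TPM in control and at 421, 367 and 380.5 TPM with Visomitin. Every Visomitin library was above every control, but the difference of 0.21 (95% interval 0.01 to 0.40) did not pass (limma adjusted p = 0.19; 0.099 to 0.44 over the alternatives). Within a library Prdx5 was 3.13 to 3.77 times Prdx3 in control and 5.10 to 5.68 times with Visomitin. Prdx5 made up 49.0% to 51.5% of the summed TPM of the 4 mitochondrial members in control and 60.9% to 65.9% with Visomitin.

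Prdx1, the abundant cytosolic peroxiredoxin, was at 1700.3, 1709.5 and 1573 TPM in control and at 1535, 1409 and 1444 TPM with Visomitin. All Visomitin libraries were lower than all controls, yet the difference of -0.18 (95% interval -0.35 to -0.01) did not pass (limma adjusted p = 0.18; 0.058 to 0.42 over the alternatives). Prdx2, its close relative best known from red cells, was at 323, 346 and 324 TPM in control and at 287, 311 and 289 TPM with Visomitin. These groups were apart as well, and the difference was -0.16 (95% interval -0.33 to 0.01, limma adjusted p = 0.22). Prdx6, a peroxiredoxin with phospholipase activity that works with glutathione rather than thioredoxin, was at 157, 152 and 172 TPM in control and at 160.01, 166 and 172 TPM with Visomitin. The groups overlapped fully (difference 0.05, 95% interval -0.14 to 0.24, limma adjusted p = 0.76). In the GENCODE M21 annotation Prdx2 overlaps Junb and Rnaseh2a, and Prdx5 overlaps Trmt112, each on the opposite strand. The labels do not say whether reads were counted by strand, so reads in the shared stretches are uncertain. A single annotated copy, the processed pseudogene Gm21399, shares at least 50% of its 31-base words with a member (Prdx1), and it was listed at 0 in every library.

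**Figure D3:**
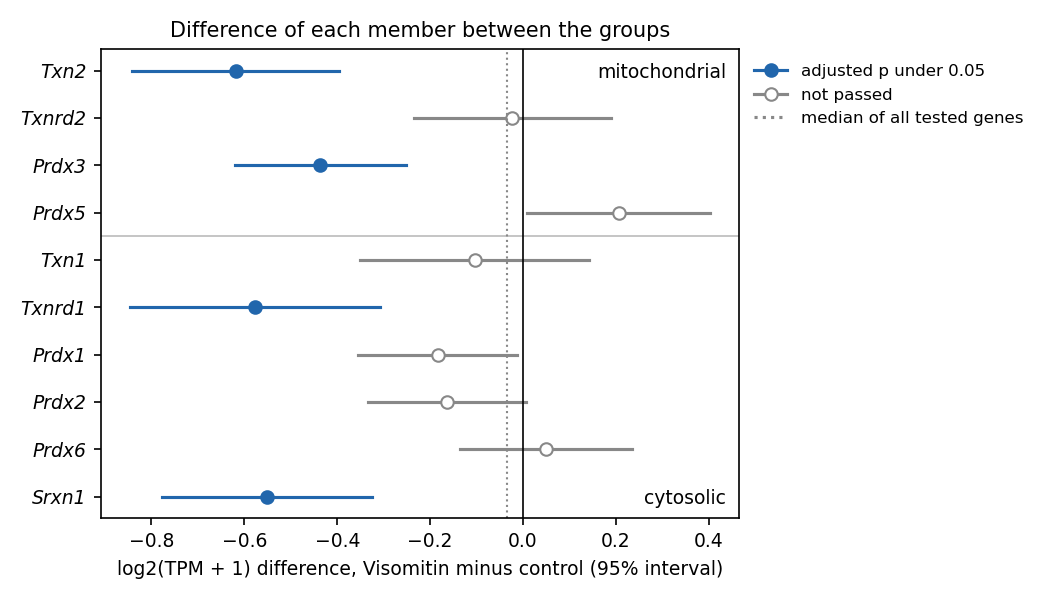
Log2(TPM + 1) difference between Visomitin and control for each member (horizontal axis) with its 95% interval from limma; filled blue points passed an adjusted p of 0.05 and open grey points did not. Txn2 (-0.62) and Prdx3 (-0.44) among the mitochondrial members and Txnrd1 (-0.58) and Srxn1 (-0.55) among the cytosolic ones lie to the left, and Prdx5 (0.21) lies farthest to the right.

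As a contrast of compartments, the mitochondrial members had a median log2 difference of -0.23 and the cytosolic members of -0.17, which are 0.06 apart. Measured against the control mean, the mitochondrial median minus the cytosolic median was -0.09, -0.03 and 0.04 in Visomitin 1, 2 and 3, and 0.03, 0.00 and 0.02 in control 1, 2 and 3, so the ranges overlapped. The spread inside each compartment was wider than the gap between them: mitochondrial differences ran from -0.62 for Txn2 to 0.21 for Prdx5, and cytosolic ones from -0.58 for Txnrd1 to 0.05 for Prdx6. Summed over members, mitochondrial transcripts were 641 to 701 TPM in control and 603 to 639 TPM with Visomitin. Cytosolic transcripts were 3055 to 3122 TPM in control and 2607 to 2782 TPM with Visomitin. The mitochondrial share of the family was 17.0% to 18.7% in control and 18.7% to 18.9% with Visomitin. Sorted by role instead, the 5 peroxiredoxins summed to 2521 to 2622 TPM in control and 2320 to 2478 TPM with Visomitin. The 5 thioredoxin, reductase and sulfiredoxin genes summed to 1141 to 1235 TPM in control and 889.6 to 943 TPM with Visomitin, so both sums were lower in every Visomitin library. Prdx1 alone was 41.9% to 45.4% of the family in control and 43.8% to 44.9% with Visomitin.

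**Figure D4:**
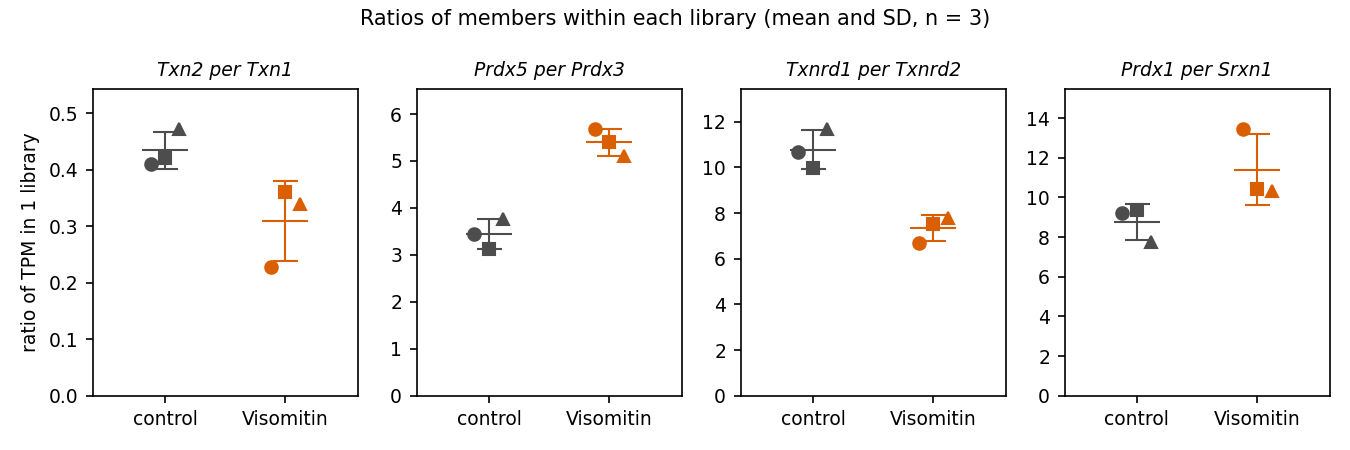
Ratio of the TPM of 1 member to another within each library, with mean ± SD (n = 3) and the vertical axis from 0. Txn2 per Txn1 and Txnrd1 per Txnrd2 are lower in every Visomitin library than in any control, and Prdx5 per Prdx3 and Prdx1 per Srxn1 are higher. Each ratio sets a member that fell beside a member that did not pass, so it restates those differences.

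The order of levels shifted in the middle of the family. In control the mean TPM ran from Prdx1 (1661) through Txn1 (476), Prdx5 (338), Prdx2 (331), Txnrd1 (279), Txn2 (207), Srxn1 (190.0), Prdx6 (160.4) and Prdx3 (98.0) to Txnrd2 (25.9). The control ranges of Prdx5 and Prdx2 overlapped, as did those of Txn2 and Srxn1, though Txn2 was above Srxn1 within every control library. With Visomitin the first 5 places were the same, but Prdx6 (166) stood above Txn2 (134) and Srxn1 (129.7) in every library, and Prdx5 (389) stood above Prdx2 (296) in every library. The Visomitin ranges of Txn2 and Srxn1 also overlapped, as did those of Txn1 and Prdx5 and those of Txnrd1 and Prdx6. Within every Visomitin library, though, Txn2 was above Srxn1, Txn1 above Prdx5 and Txnrd1 above Prdx6.

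Likeness of profiles over the 6 libraries was measured as the root mean square difference of centred log2 profiles. It was 0.04 between Txn2 and Srxn1, 0.05 between Txnrd1 and Srxn1 and 0.07 between Txn2 and Txnrd1, and it was 0.15 between Prdx3 and Srxn1. Pairs that did not pass the test were about as close, with 0.05 between Txnrd2 and Prdx6 and 0.08 between Prdx1 and Prdx2. Txn2, Txnrd1 and Srxn1 were each highest in control 3 and lowest in Visomitin 1. Outside the family, the genes with the profile most like that of Txn2 were Mrpl12, a subunit of the mitochondrial ribosome (0.02), Tprn, which encodes taperin (0.04), and Calr, the endoplasmic reticulum chaperone calreticulin (0.04). Those most like Srxn1 were G3bp1, a stress granule protein (0.03), Lasp1, an actin-binding protein (0.03), and Parvb, an integrin-linked adaptor (0.03). These 6 genes fell between 1.45-fold and 1.57-fold, as follows from being picked for likeness. Lasp1 kept its call under all 11 alternatives, and the others lost it under 1 to 5 of them.

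Genes linked to the family were read from lists of partners and neighbours in redox metabolism. For comparison with each list below, 2.08% of all genes tested were called higher and 5.03% lower. At an unadjusted p of 0.05 these shares were 9.12% and 15.2%. Of 22 tested thioredoxin-linked genes 1 rose and 0 fell by limma (3 higher and 2 lower at an unadjusted p of 0.05), with a median of -0.03. Sesn2, a sestrin induced by stress, rose from 21.2 ± 1.39 to 30.6 ± 3.97 TPM (SD, n = 3; 0.51, SE 0.12, limma adjusted p = 0.043), a call that 6 of 11 alternatives ended (0.011 to 0.15), among them leaving out control 1, control 2, control 3, Visomitin 2 or Visomitin 3. Prdx4, the peroxiredoxin of the endoplasmic reticulum, was at 81.1, 79.9 and 83.0 TPM in control and 93.7, 93.6 and 94.9 TPM with Visomitin, apart but not passing (0.21, limma adjusted p = 0.13). Txnip, the inhibitor that binds reduced thioredoxin, was at 356, 371 and 284 TPM in control and 324, 393 and 361 TPM with Visomitin. Its groups overlapped, and the difference of 0.10 (95% interval -0.18 to 0.37, adjusted p = 0.67) became -0.02 without control 3. The glutaredoxins Glrx (-0.33, adjusted p = 0.057) and mitochondrial Glrx5 (-0.42, adjusted p = 0.10) did not pass. Neither did the methionine sulfoxide reductase Msrb1 (0.35, adjusted p = 0.088), a selenoprotein that thioredoxin recharges. Each of these passed under 1 or 2 alternatives, with lowest adjusted p-values of 0.048, 0.047 and 0.037.

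Of 19 tested NRF2 targets outside the family 1 fell and 0 rose, with a median of -0.18. At an unadjusted p of 0.05, 7 were lower and 2 higher, where 15.2% of all genes tested were lower and 9.12% higher. The 2 higher ones were Blvrb (0.20, limma adjusted p = 0.15) and Ftl1 (0.20, limma adjusted p = 0.16). In both, every Visomitin library was above every control, but neither passed. The difference was below 0 for 12 of the 19, and for 55.7% of all genes tested. Me1, the cytosolic malic enzyme that makes NADPH, fell from 21.7 ± 1.17 to 13.0 ± 1.64 TPM (SD, n = 3; -0.70, SE 0.12, limma adjusted p = 0.012; 0.051 without control 3, 0.0074 to 0.051 over the alternatives). Hmox1, heme oxygenase, was at 465, 468 and 644 TPM in control and 281, 354 and 397 TPM with Visomitin. Its difference of -0.61 did not pass (limma adjusted p = 0.060, and 0.048 without Visomitin 3). Over the 11 alternatives the adjusted p ran from 0.0079 to 0.19, and 2 of them called Hmox1 lower. Control 3 was highest and Visomitin 1 lowest for Hmox1, as for Srxn1 and Txnrd1. The same held for Txn2, Calr and Lasp1, which are not listed here as NRF2 targets. These 2 libraries also had the most extreme scores on the first principal component (-28.8 and 29.3). Osgin1 (-0.46, adjusted p = 0.067; 0.038 to 0.20 over the alternatives), Pgd of the pentose phosphate pathway (-0.21, adjusted p = 0.12) and the quinone reductase Nqo1 (-0.24, adjusted p = 0.15) did not pass. Gclm, the regulatory subunit of glutathione synthesis, was at 138, 131 and 127 TPM in control and 108, 207 and 171 TPM with Visomitin. It was thus lowest of all libraries in Visomitin 1 and above every control in the other two (0.24, limma adjusted p = 0.52; 0.51 with adjusted p = 0.029 without Visomitin 1, 0.029 to 0.93 over the alternatives).

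The reductases need NADPH and selenium. Of 8 tested genes listed for mitochondrial NADPH supply 1 rose and 0 fell (1 higher and 2 lower at an unadjusted p of 0.05), with a median of -0.07. The difference was below 0 for 6 of the 8, and for 55.7% of all genes tested. NADPH itself was not measured here. The riser was Mthfd2, of mitochondrial folate metabolism, from 36.0 ± 5.04 to 65.7 ± 8.75 TPM (SD, n = 3; 0.85, SE 0.13, limma adjusted p = 0.0089), while Glud1 (-0.27, adjusted p = 0.080), Me2 (-0.29, adjusted p = 0.091) and Idh2 (-0.16, adjusted p = 0.36) did not pass. Of 8 tested genes of selenoprotein synthesis 1 fell and 0 rose (1 lower and 0 higher at an unadjusted p of 0.05), with a median of -0.03. Pstk, the kinase that prepares the selenocysteine tRNA, fell from 19.5 ± 2.20 to 13.5 ± 1.37 TPM (-0.50, SE 0.12, limma adjusted p = 0.049), a call that 8 of the 11 alternatives ended, among them leaving out any single library (0.051 to 0.16) and using no filter (0.11; 0.030 to 0.16 over all alternatives). Sephs1 (-0.24, adjusted p = 0.28), Secisbp2 (-0.15, adjusted p = 0.55) and Eefsec (0.14, adjusted p = 0.67) did not pass.

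Of 14 tested selenoproteins outside the family 2 rose and 0 fell (3 higher and 1 lower at an unadjusted p of 0.05), with a median of 0.13. Selenop, a secreted selenium carrier, rose from 269 ± 43.6 to 442 ± 37.7 TPM (SD, n = 3; 0.72, SE 0.13, limma adjusted p = 0.015; 0.056 without Visomitin 2 and 0.068 with no filter, 0.0056 to 0.068 over the alternatives). Selenow, a small selenoprotein, rose from 44.6 ± 2.44 to 60.7 ± 5.12 TPM (0.43, SE 0.10, limma adjusted p = 0.034), a call that leaving out control 1, control 2, control 3, Visomitin 2 or Visomitin 3, or using no filter, ended (0.034 to 0.12 over the alternatives). Selenoh (0.32, adjusted p = 0.16) and Selenoi (-0.41, adjusted p = 0.16) did not pass. Among 5 other tested enzymes of superoxide and peroxide 1 fell and 0 rose (3 lower and 0 higher at an unadjusted p of 0.05). Sod2, the mitochondrial superoxide dismutase that makes the peroxide Prdx3 removes, fell from 213 ± 7.76 to 139 ± 23.6 TPM (-0.63, SE 0.13, limma adjusted p = 0.023), and lost the call without control 1, control 2 or control 3 or with no filter (0.0096 to 0.086 over the alternatives). The median of those 5 was the value of Sod2 itself. The cytosolic Sod1 (0.13, adjusted p = 0.32) and the low-level Gpx7 (-0.92, adjusted p = 0.064; -1.44 with a pseudocount of 0.1, 0.064 to 0.18 over all settings) and Gpx8 (-0.71, adjusted p = 0.11; 0.034 without control 2, 0.034 to 0.31 over the alternatives) did not pass.

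**Figure D5:**
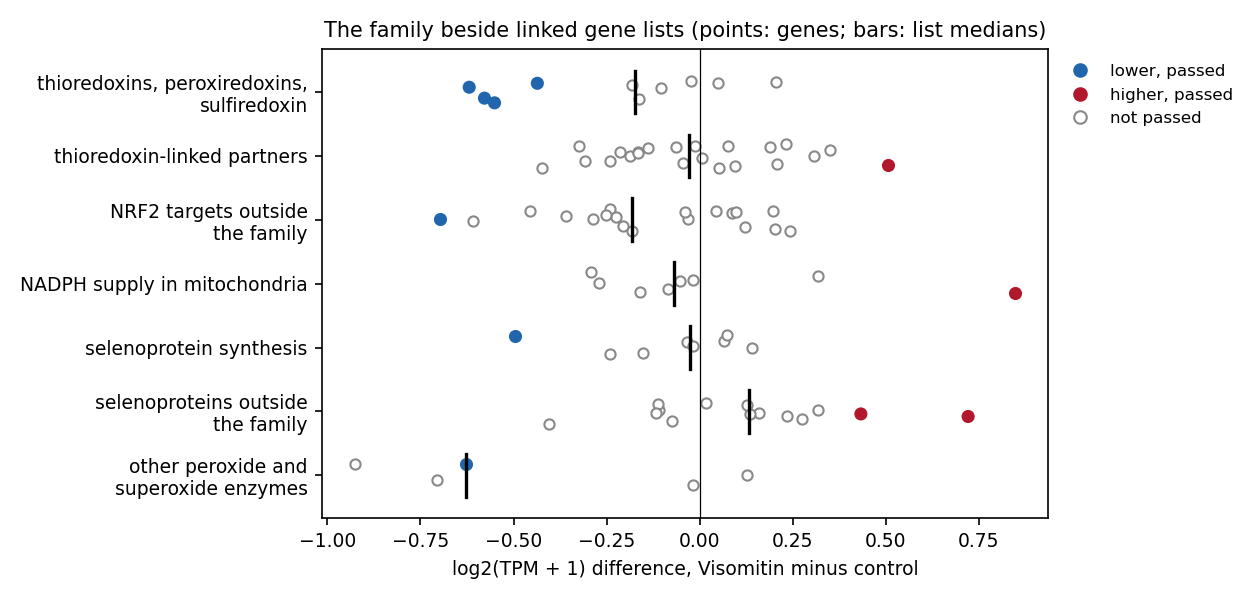
Log2(TPM + 1) difference between Visomitin and control (horizontal axis) for the 10 members and for the tested genes of 6 linked lists; points are genes, spread vertically for legibility, filled where limma's adjusted p was under 0.05, and black bars are list medians. The family has 4 filled points on the left, and each other list has 1 or 2 filled points.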

How the data were processed

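Per the labels' protocols, RNA from TRIzol extraction was cleared of genomic DNA and turned into stranded mRNA libraries. The submitters' processing notes name fastp, HISAT2 and StringTie; versions, build and annotation are not stated there. The authors deposited TPM per gene, scaled within each library, so depth is unknown and precision rests on the number of libraries. A table of reference names gave the symbols (51884 of 57180 identifiers matched). Genes at 1 TPM or more in at least 3 of 6 libraries were fitted with limma 3.58.1 (R 4.3.3, trend) on log2(TPM + 1), with group as the only term and Benjamini-Hochberg adjustment. The script was tested on simulated data. Named genes are the 10 members, osteoclast and macrophage markers, Txnip, Prdx4, Nqo1, Gclm, up to 4 genes per linked list with the lowest p-values, and the 3 genes closest in profile to Txn2 and to Srxn1, the members with the lowest p in each compartment. Members and lists were chosen with earlier results of these data known. The 11 alternatives were a pseudocount of 0.1, no filter, median-ratio scaling, quantile normalization, a replicate block and each library left out. Figures used matplotlib 3.10.9. Protein levels were not analysed here, and a few genes are not reported here.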

Additional observations from a re-analysis of the deposited data

How the results depend on the processing

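The count of members that fell was 4 under the pseudocount of 0.1, both scalings and the replicate block, 2 with no filter on low values, and 1 to 5 when a library was left out: 1 without control 1 or control 3, 2 without Visomitin 2, 3 without control 2, 4 without Visomitin 3 and 5 without Visomitin 1. No alternative called a member higher. With no filter 73 genes were higher and 308 lower; median-ratio scaling gave 481 higher and quantile normalization 560. With a library left out, 64 to 420 genes were higher and 244 to 561 lower; such fits have fewer residual degrees of freedom. The mitochondrial minus cytosolic median was -0.06 and ran from -0.10 without Visomitin 3 to 0.001 without Visomitin 1. Signs reversed for Txnrd2 (0.017 after median-ratio scaling, 0.035 after quantile normalization), which ran from -0.066 to 0.015 with a library left out, for Txnip (-0.022 without control 3, 0.170 without control 2) and for Csf1r (-0.091 without Visomitin 2, 0.280 without Visomitin 1). The cause of these shifts was not tested. Same-numbered libraries had residual correlations of 0.046, 0.020 and 0.173, and the labels state no pairing. With the replicate block 308 genes were higher and 799 lower, 4 members fell, and the compartment difference was -0.056. The block added calls for Hmox1 (adjusted p = 0.0079), Msrb1 (0.037), Osgin1 (0.047) and Glrx (0.048), and ended that of Pstk (0.061).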
